A study of Mus musculus with 21 samples.

Results

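Cyp2b9, Cyp2b10, Cyp2b13 and Cyp2b23 are the cytochrome P450 genes of the Cyp2b subfamily considered here, measured by every array probe whose annotated symbol is one of these 4 names. These were 6 of the 45281 probes of the table, and all 6 passed the detection filter. After the brightest probe was taken for each gene they made up 4 of the 11442 genes tested. Liver RNA came from 21 female CD-1 mice aged 3 months, 1 array per mouse and 3 mice in each of 7 groups. Control mice (CO) were untreated. PH mice were killed 1, 3 or 6 h after surgical partial hepatectomy, which took 70% of the liver. TCP mice were killed 1, 3 or 6 h after a single gavage of TCPOBOP, which activates the constitutive androstane receptor (CAR), at 3 mg/kg in dimethyl sulphoxide and corn oil. CD-1 is an outbred stock, no group carried a transgene or deletion, and no sham-operated, vehicle-treated or time-matched control was among the arrays analysed here.

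CAR is a nuclear receptor of the hepatocyte that stays in the cytoplasm at rest. It moves to the nucleus when a ligand such as TCPOBOP reaches the cell, and there binds DNA with its partner RXR. Cyp2b enzymes oxidise drugs, steroids and other lipophilic molecules, and Cyp2b10, the mouse counterpart of human CYP2B6, is the gene most often used as a readout of CAR activity. Cyp2b9 and Cyp2b13 are known as female-predominant genes of mouse liver, repressed by the male pattern of growth hormone. All 4 genes lie on chromosome 7 of mouse build GRCm38.p6, with Cyp2b10 at chr7:25897658-25926624, Cyp2b13 at chr7:26061388-26096197, Cyp2b9 at chr7:26173350-26210661 and Cyp2b23 at chr7:26665227-26686430. They are paralogues of similar sequence, probe sequences were not used here, and how far a probe also reads a neighbouring Cyp2b transcript was not tested, so the split of signal between the 4 genes is uncertain.

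RefSeq promoter windows (GRCm38.p6, 250 bases before to 50 after 1 start site per gene) were matched for all 4 genes. The start site of the window is the annotated start of the gene for Cyp2b10 and Cyp2b23, whereas it lies 59 bases inside the annotated gene for Cyp2b9 and 107 bases inside it for Cyp2b13, and distances below are from the window's start site. All 4 windows hold a stretch that can be set at the letters TTGNATAA. The Cyp2b10 and Cyp2b23 windows hold TTGCATAA and the Cyp2b9 and Cyp2b13 windows hold TTGTATAA. Those of Cyp2b10 and Cyp2b23, the 2 genes whose levels were most alike, are shown with these letters in capitals. Each stretch is 105 bases long, is written 5′ to 3′ on the strand of its gene and ends before the start of the gene. They lie at chr7:25897540-25897644 (+ strand) for Cyp2b10 and chr7:26686471-26686575 (- strand) for Cyp2b23.
Cyp2b10: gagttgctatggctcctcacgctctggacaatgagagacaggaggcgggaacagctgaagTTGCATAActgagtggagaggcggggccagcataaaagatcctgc
Cyp2b23: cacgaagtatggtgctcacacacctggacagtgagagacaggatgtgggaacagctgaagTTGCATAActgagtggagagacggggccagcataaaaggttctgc

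The Cyp2b9 and Cyp2b13 stretches were the same at all 105 positions. The Cyp2b10 stretch matched that of Cyp2b23 at 83 positions (79.0%) and that of Cyp2b9 or Cyp2b13 at 74 (70.5%), while the Cyp2b23 stretch also matched that of Cyp2b9 or Cyp2b13 at 83. TTGCATAA began 58 bases before the start of Cyp2b10 and 85 before that of Cyp2b23, and was present on either strand in 0.743% of the 32851 promoter windows of the table. TTGTATAA began 59 bases before the window's start site in both Cyp2b9 and Cyp2b13, within the annotated gene in both, and was present in 0.581% of windows. ATAAAA was found in the Cyp2b10 and Cyp2b23 windows and in 18.5% of all windows. AGGTCA, the letters of a nuclear receptor half-site, was found in the Cyp2b9, Cyp2b13 and Cyp2b23 windows and in 16.3% of all windows. Both strands were searched for each motif, the last 4 letters of TTGCATAA and TTGTATAA can overlap the start of ATAAAA, and a match is a description of letters only. The enhancer module through which CAR is known to act on Cyp2b10 lies further upstream than these windows.

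Over the whole 300-base window, Cyp2b9 and Cyp2b13 were alike at 298 positions (99.3%). They differed by T48C and C104T, with the base of Cyp2b9 first and positions counted from 1 at the 5′ end of the window. The stretches that hold both differences are shown with the differing bases in capitals, because these 2 genes have almost the same promoter window. In their calls after TCP they were not alike (Cyp2b13 was called and Cyp2b9 was not). Neither Cyp2b13 call held in every fit given below, and a link between these bases and the levels was not tested. The stretches lie at chr7:26173198-26173270 for Cyp2b9 and chr7:26061284-26061356 for Cyp2b13, both on the + strand.
Cyp2b9: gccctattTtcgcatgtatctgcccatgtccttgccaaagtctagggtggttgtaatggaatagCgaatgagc
Cyp2b13: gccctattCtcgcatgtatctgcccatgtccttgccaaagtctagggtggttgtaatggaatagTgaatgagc

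Each array detected 15982 to 17973 probes (detection p below 0.05), arrays of 1 group correlated at 0.963 or more over the 11442 genes tested, and no array repeated another. The arrays lay on 4 beadchips, and beadchip 1 held all 3 TCP 6 h arrays with control replicate 1 and TCP 3 h replicate 1. All 3 PH 1 h arrays lay on beadchip 3 with control replicate 2, and all 3 PH 6 h arrays on beadchip 4 with control replicate 3. PH and TCP arrays of the same time never shared a beadchip, so that their difference has no value within one. The 9 tested hepatocyte markers averaged 13.23 to 13.76 on the log2 scale over all groups. After TCP 0 of them were called, with 2.72% of all genes called higher and 2.94% lower at 6 h. Of the 4 tested red blood cell markers, the list mean was 10.00 to 10.86 in controls, 8.49 to 8.55 at TCP 3 h and 8.94 to 9.47 at TCP 6 h, and after PH it was 8.87 to 9.34 at 3 h and 8.52 to 9.91 at 6 h. The list mean of 7 neutrophil markers was 4.64 to 4.89 in controls, 6.53 to 6.92 at PH 3 h and 5.86 to 6.20 at PH 6 h. At each of these PH times 3 were called higher, against 3.92% and 8.79% of all genes. After TCP the neutrophil list mean also lay above every control, reaching 5.79 at 1 h. It was 5.06 to 5.71 at TCP 3 h and 5.02 to 5.03 at TCP 6 h. At each TCP time 0 of the 7 neutrophil markers were called. The part of these markers in the Cyp2b values was not tested. In whole liver, fewer cells of a type and less RNA per cell cannot be told apart.

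Following TCP, Cyp2b10, Cyp2b13 and Cyp2b23 rose at 3 and at 6 h, whereas Cyp2b9 stayed within 0.10 of control on the log2 scale at every time. No Cyp2b gene was called against control at any time after PH. Calls needed 1.5-fold or more and a limma adjusted p below 0.05, and levels are log2 of the background-corrected, quantile-normalised signal. At TCP 3 h 3 of the 4 genes were called higher, against 0.446% of all genes tested, and at TCP 6 h 3 of 4, against 2.72%. At TCP 1 h 0 of 4 were called, against 0.0874% of genes called higher and 0.0524% lower, and the shares called lower at TCP 3 and 6 h were 0.586% and 2.94%. After PH 0 of 4 were called at 1 h (0.297% of all genes higher, 0.236% lower), 3 h (3.92% and 3.52%) or 6 h (8.79% and 11.9%). The median change of the 4 genes over the 3 times was 0.31, 1.54 and 2.07 for TCP and -0.40, 0.30 and 0.07 for PH, while that of all genes was -0.08 to 0.00 in these 6 comparisons.

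**Figure D1:**
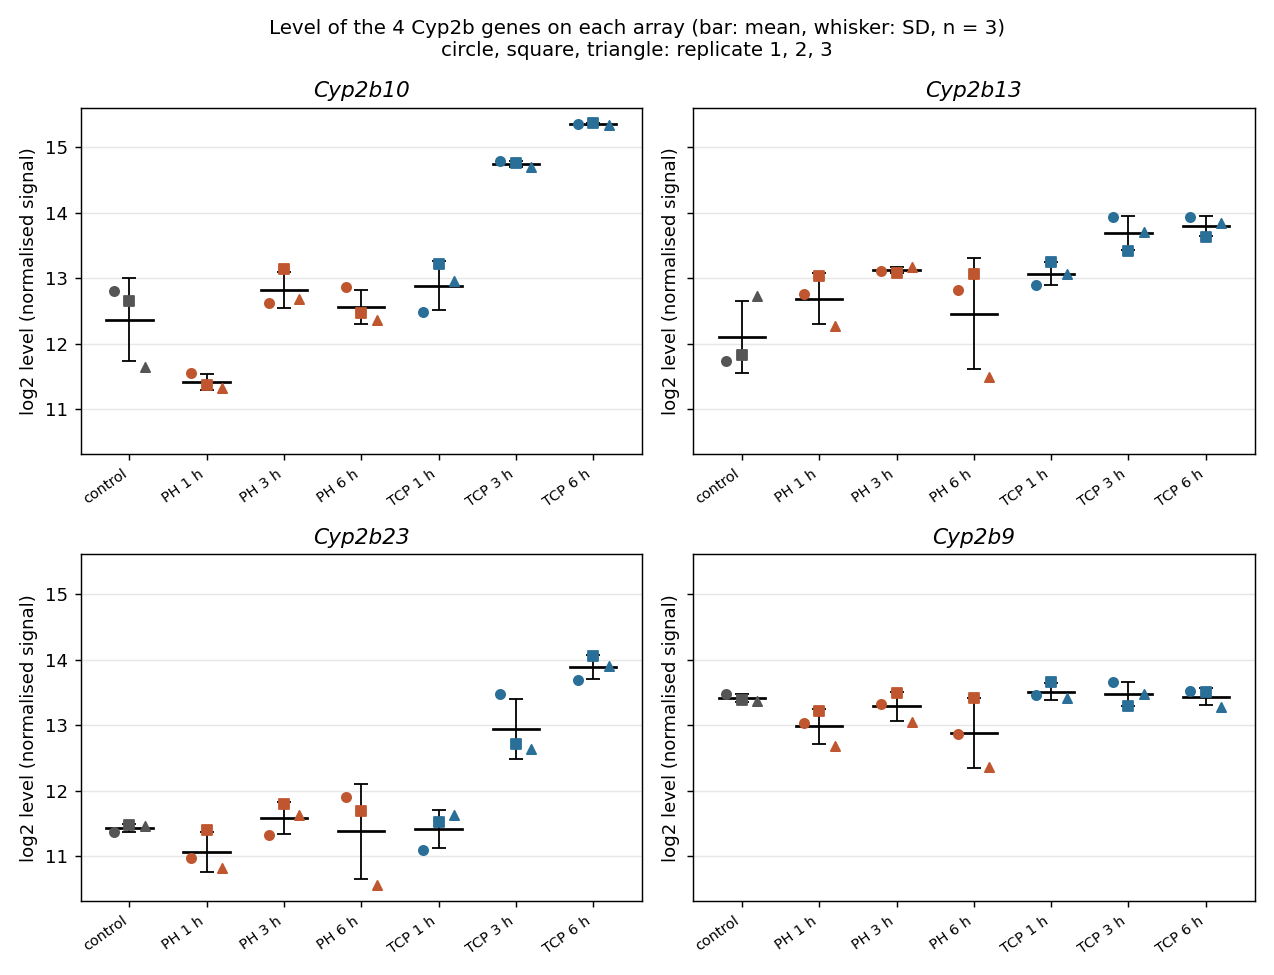
The log2 level of the brightest probe of each gene is plotted for each of the 21 arrays by group, with the replicate as the symbol, the mean as a bar and the SD as a whisker. Cyp2b10 stood at 15.33 to 15.36 on the TCP 6 h arrays, above all other groups, whereas the Cyp2b9 levels of the TCP and control arrays lay between 13.28 and 13.66.

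Cyp2b10 had the largest change of the 4 at 3 and at 6 h after TCP. Its control levels were 12.80, 12.66 and 11.64 in replicates 1, 2 and 3. They were 12.48, 13.22 and 12.96 at TCP 1 h, 14.78, 14.75 and 14.70 at TCP 3 h and 15.35, 15.36 and 15.33 at TCP 6 h. The TCP 1 h arrays overlapped the controls, and all 6 later TCP arrays lay above every control and every PH array. As deposited signal, the TCP 6 h arrays read 35115, 34500 and 30098 against 8134, 7889 and 3520 in controls, with 58031 the highest signal of any probe. Cyp2b10 rose by 2.38 at 3 h (SE 0.23, 5.20-fold, limma adjusted p = 1.44e-05) and by 2.98 at 6 h (SE 0.23, 7.89-fold, limma adjusted p = 2.46e-07), the latter the 7th largest rise among all genes. The change at TCP 1 h was 0.52 (SE 0.23, limma adjusted p = 0.579). When beadchip was a block Cyp2b10 kept its call at 3 h with 2.39 and at 6 h with 2.75, and within beadchip 1 it was 1.98 at 3 h (1 TCP array against 1 control array) and 2.55 at 6 h (3 arrays against 1). At 3 h within that beadchip the changes of Cyp2b13 (2.18) and Cyp2b23 (2.09) were larger than that of Cyp2b10.

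Cyp2b23, a further P450 of the subfamily, also rose at 3 and 6 h and not at 1 h. Control arrays stood at 11.37, 11.48 and 11.46, and TCP 1 h arrays at 11.09, 11.53 and 11.63, overlapping them. The TCP 3 h levels were 13.47, 12.71 and 12.64 and the TCP 6 h levels 13.69, 14.06 and 13.90, all above every other array. Cyp2b23 rose 2.83-fold at 3 h (SE 0.28 on the log2 scale, limma adjusted p = 0.0105) and by 2.45 at 6 h (SE 0.28, 5.45-fold, limma adjusted p = 4.02e-05). At TCP 1 h its change was -0.02 (SE 0.28, limma adjusted p = 0.996). The 3 h call was lost without control replicate 1 (1.47, limma adjusted p = 0.0665), without control replicate 2 (1.52, limma adjusted p = 0.0527) and when beadchip was a block (1.85, limma adjusted p = 0.0647). The single TCP 3 h array on beadchip 1 differed from its single control array by 2.09. The 6 h call held in these fits, with a block value of 2.39.

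Cyp2b13, female-predominant like Cyp2b9, was called at the same times, and its controls were spread. They read 11.74, 11.83 and 12.73, so that control replicate 3 was the highest of the group here and the lowest for Cyp2b10. The TCP levels were 12.90, 13.24 and 13.07 at 1 h, 13.93, 13.42 and 13.71 at 3 h, and the 6 h arrays read 13.93, 13.63 and 13.84, none of them overlapping the controls. Cyp2b13 rose by 1.59 at 3 h (SE 0.32, 3.00-fold, limma adjusted p = 0.0223) and by 1.70 at 6 h (SE 0.32, 3.25-fold, limma adjusted p = 0.00569), after a change of 0.97 at 1 h that was not called (limma adjusted p = 0.371). The 3 h call was lost without control replicate 1 (1.41, limma adjusted p = 0.134), control replicate 2 (1.45, limma adjusted p = 0.135), TCP 3 h replicate 1 (1.47, limma adjusted p = 0.0900) or TCP 3 h replicate 3 (1.57, limma adjusted p = 0.0654). Neither call held when beadchip was a block, at 1.71 (limma adjusted p = 0.198) and 1.82 (limma adjusted p = 0.0969). Within beadchip 1 the changes were 2.18 at 3 h, from 1 TCP array and 1 control array, and 2.06 at 6 h, from 3 arrays against 1.

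Cyp2b9 had no change after TCP that was called. Control arrays were 13.48, 13.38 and 13.37. TCP arrays were 13.46, 13.66 and 13.42 at 1 h, 13.66, 13.29 and 13.48 at 3 h, and the 6 h arrays read 13.52, 13.51 and 13.28, and every TCP group overlapped the controls. The changes were 0.10, 0.07 and 0.03 at 1, 3 and 6 h (SE 0.19 each, limma adjusted p = 0.944, 0.927 and 0.962). Scaling the arrays to a common median turned the TCP changes of Cyp2b9 to -0.09, -0.17 and -0.33, none of them called.

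**Figure D2:**
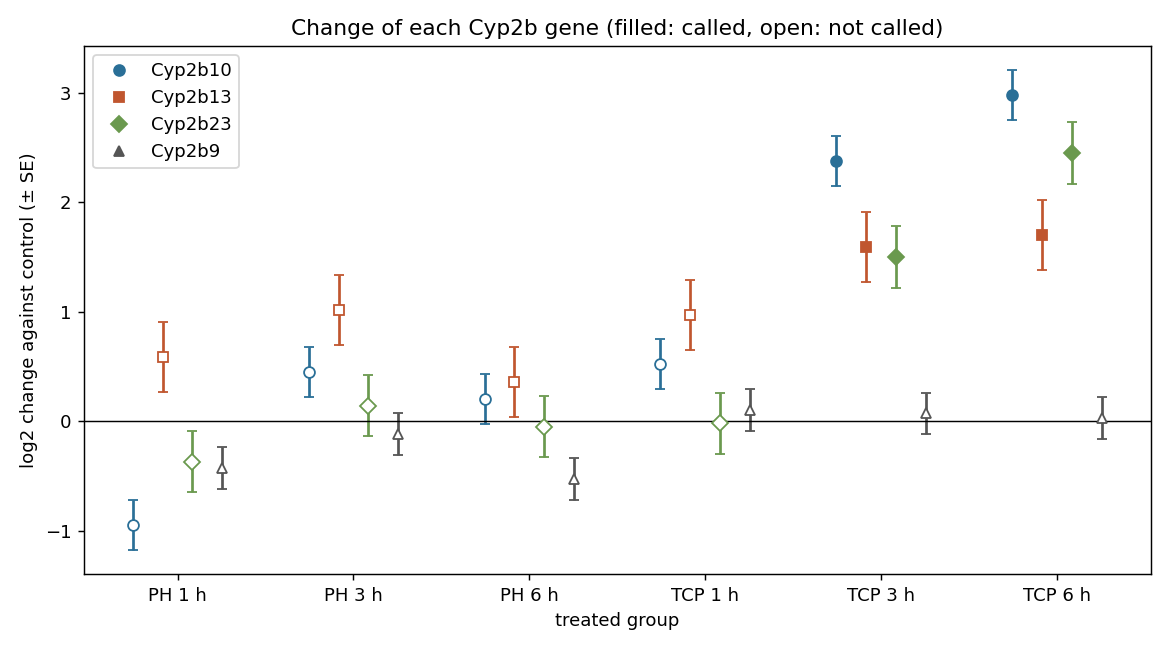
The log2 change against control is plotted for each gene and treated group with its SE, filled where the gene was called. The filled symbols are the TCP 3 h and TCP 6 h values of Cyp2b10, Cyp2b13 and Cyp2b23, from 2.83-fold to 7.89-fold.

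The F test over the 3 times of TCP called Cyp2b10 (limma adjusted p = 2.11e-07), Cyp2b23 (limma adjusted p = 4.03e-05) and Cyp2b13 (limma adjusted p = 1.15e-02) but not Cyp2b9 (limma adjusted p = 0.979), against 5.70% of all genes. For PH it called Cyp2b10 alone (limma adjusted p = 9.22e-04), against 20.8% of all genes. Between 1 and 3 h after TCP, Cyp2b10 rose by 1.86 (SE 0.23, limma adjusted p = 9.08e-04) and Cyp2b23 by 1.52 (SE 0.28, limma adjusted p = 0.0306), 2 of 4 genes against 0.157% of all genes. Leaving out TCP 1 h replicate 1, 2 or 3 or TCP 3 h replicate 1 or 3 ended the Cyp2b23 call, with changes of 1.36, 1.58, 1.63, 1.26 and 1.67. Neither call held within beadchip 2, at 1.88 for Cyp2b10 (limma adjusted p = 0.0805) and 1.37 for Cyp2b23 (limma adjusted p = 0.0921). Between 3 and 6 h after TCP 0 of 4 genes were called, against 0.559% called higher, although the arrays of the 2 times did not overlap for Cyp2b10 (0.60, SE 0.23, limma adjusted p = 0.239) or Cyp2b23 (0.94, SE 0.28, limma adjusted p = 0.113). Without TCP 3 h replicate 1 the latter step was called at 1.21 (limma adjusted p = 0.0289).

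After PH no gene was called against control at a single time, although the F test over the 3 times called Cyp2b10, along with 20.8% of all genes. Cyp2b10 read 11.55, 11.37 and 11.33 at PH 1 h, 12.63, 13.14 and 12.69 at 3 h, and the 6 h arrays read 12.86, 12.47 and 12.37. All PH 1 h arrays lay below the lowest control, and the change of -0.95 (SE 0.23) was not called (limma adjusted p = 0.0692). It was called without control replicate 3, at -1.31 (limma adjusted p = 0.00158). The Cyp2b10 changes at PH 3 and 6 h were 0.45 and 0.20 (SE 0.23 each, limma adjusted p = 0.270 and 0.576). Within beadchip 4, against control replicate 3 alone, they were 1.05 and 0.93. Within beadchip 3, against control replicate 2 alone, the PH 3 h change was 0.23. From 1 to 3 h after PH Cyp2b10 rose by 1.40 (SE 0.23, limma adjusted p = 0.00494), the single member called in that step, against 1.07% of genes called higher. Within beadchip 3 that step was 1.47 (limma adjusted p = 0.0756). A second, dimmer probe of Cyp2b10 rose by 1.03 in that step and was not called (limma adjusted p = 0.159).

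Cyp2b13 read 12.76, 13.04 and 12.27 at PH 1 h, 13.11, 13.08 and 13.17 at 3 h, and the 6 h arrays read 12.82, 13.07 and 11.49. The PH 3 h arrays lay above all controls, and the change of 1.02 (SE 0.32), with a limma adjusted p = 0.0681, was called without control replicate 3 (1.33, limma adjusted p = 0.0242). At 6 h the change was 0.36 (SE 0.32, limma adjusted p = 0.470), and without PH 6 h replicate 3 it was 0.85 and called (limma adjusted p = 0.0178). Cyp2b9 read 13.04, 13.22 and 12.69 at 1 h, 13.33, 13.49 and 13.05 at 3 h, and the 6 h arrays read 12.87, 13.42 and 12.36. Its PH changes were -0.43, -0.12 and -0.53 (SE 0.19 each), the last with a limma adjusted p = 0.0526, and it was called lower at 6 h without PH 6 h replicate 2 (-0.80, limma adjusted p = 0.00231). Cyp2b23 read 10.98, 11.40 and 10.82 at 1 h, 11.32, 11.80 and 11.63 at 3 h, and the 6 h arrays read 11.90, 11.69 and 10.56, with changes of -0.37, 0.14 and -0.05. PH 6 h replicate 3 was the lowest of its group for each of the 4 genes.

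The direct comparison of the treatments addressed whether the genes differed between PH and TCP at the same time. At 1 h Cyp2b10 was lower after PH by 1.47 on the log2 scale, at a difference of -1.47 (SE 0.23, limma adjusted p = 0.00760), 1 of 4 genes against 0.0524% of all genes called lower. The call was lost without TCP 1 h replicate 2 (-1.30, limma adjusted p = 0.0512) and when beadchip was a block (-1.79, limma adjusted p = 0.180). The dimmer probe of Cyp2b10 differed by -0.64 at 1 h and was not called (limma adjusted p = 0.652). At 3 h 2 of 4 genes were called lower after PH, against 1.68%, with -1.92 for Cyp2b10 (SE 0.23, limma adjusted p = 1.39e-04) and -1.36 for Cyp2b23 (SE 0.28, limma adjusted p = 0.00738). With the block Cyp2b23 lost its call (-1.68, limma adjusted p = 0.142). At 6 h 3 of 4 were called lower, against 5.43%. The differences were -2.78 for Cyp2b10 (SE 0.23, limma adjusted p = 2.24e-07), -2.50 for Cyp2b23 (SE 0.28, limma adjusted p = 9.55e-06) and -1.34 for Cyp2b13 (SE 0.32, limma adjusted p = 0.0124). That of Cyp2b13 lost its call without TCP 6 h replicate 1 (-1.27, limma adjusted p = 0.0506), with the block (-1.68, limma adjusted p = 0.316) and in a model of only the 2 groups (-1.34, limma adjusted p = 0.0927). Cyp2b9 differed by -0.53, -0.19 and -0.56 at 1, 3 and 6 h and was not called, but it was called at 6 h without PH 6 h replicate 2 (-0.82, limma adjusted p = 0.00346).

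Ordered by mean level, TCP 6 h and TCP 3 h stood first and second of the 7 groups for Cyp2b10, Cyp2b13 and Cyp2b23. For Cyp2b10 the group means were 15.35 ± 0.02 (SD, n = 3) at TCP 6 h, 14.75 ± 0.04 at TCP 3 h, 12.89 ± 0.38 at TCP 1 h, 12.82 ± 0.28 at PH 3 h, 12.57 ± 0.26 at PH 6 h, 12.37 ± 0.63 in controls and 11.42 ± 0.11 at PH 1 h. The arrays of TCP 1 h, PH 3 h, PH 6 h and control overlapped each other. For Cyp2b23 the means ran from 13.88 ± 0.18 at TCP 6 h and 12.94 ± 0.46 at TCP 3 h to between 11.06 and 11.58 in the other 5 groups. For Cyp2b13 they ran from 13.80 ± 0.16 at TCP 6 h and 13.69 ± 0.25 at TCP 3 h, whose arrays overlapped, to 12.10 ± 0.54 in controls. For Cyp2b9 all group means lay between 12.88 and 13.51.

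A difference of 2 genes on the same array depends little on how that array was scaled. Cyp2b10 minus Cyp2b9 was -1.73 to -0.68 in controls, 1.12 to 1.46 at TCP 3 h and 1.83 to 2.05 at TCP 6 h, a shift of the mean by 2.31 and 2.95. Cyp2b23 minus Cyp2b9 was -2.10 to -1.90 in controls and 0.18 to 0.62 at TCP 6 h, a shift of 2.42, and it was -1.80 to -0.97 at PH 6 h, a shift of 0.47. Cyp2b13 minus Cyp2b9 was -1.73 to -0.64 in controls, 0.13 to 0.27 at TCP 3 h and 0.11 to 0.56 at TCP 6 h, shifts of 1.52 and 1.67. It also lay apart from the controls at PH 1 h (-0.43 to -0.17), PH 3 h (-0.41 to 0.12) and TCP 1 h (-0.56 to -0.36). None of these ranges overlapped the controls, and the two-sided exact permutation p was 0.10 for each, the smallest that 3 arrays against 3 allow, so that none can pass a threshold of 0.05. Such differences show unequal change of 2 probes and do not set one gene's amount against the other's.

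Cyp2b10 and Cyp2b23 each had a second, dimmer probe. The dim probe of Cyp2b10 was detected on 20 of 21 arrays, with levels of 5.58, 5.74 and 5.33 in controls, 8.45, 8.32 and 7.58 at TCP 3 h and 9.73, 10.08 and 10.13 at TCP 6 h. In a fit over all 17970 kept probes it rose by 2.57 at 3 h (SE 0.34, limma adjusted p = 4.08e-04) and by 4.43 at 6 h (SE 0.34, 21.5-fold, limma adjusted p = 8.82e-08), against 0.367% and 2.21% of probes called higher. From 3 to 6 h after TCP it rose by 1.86 (SE 0.34, limma adjusted p = 0.00882), where the bright probe changed by 0.60 and was not called. In the same fit its PH versus TCP differences at 3 and 6 h were called, at -1.95 and -3.79 (limma adjusted p = 0.00267 and 3.25e-07). Unlike the bright probe, it was not called for PH versus TCP at 1 h (-0.64) or from 1 to 3 h after PH (1.03). The dim probe of Cyp2b23 was not detected on any control, PH 1 h, PH 6 h or TCP 1 h array. Its levels were 4.77, 4.85 and 4.46 in controls, 6.03, 6.17 and 6.09 at TCP 3 h and 6.90, 6.80 and 6.96 at TCP 6 h. These TCP levels were at least 2.05-fold higher than control at 3 h and at least 3.54-fold higher at 6 h. Each bound sets the mean of the detected group against the dimmest detected signal on the control arrays. The fit, which used control levels below detection, gave changes of 1.41 (limma adjusted p = 5.26e-04) and 2.20 (limma adjusted p = 2.74e-07). This probe was detected on 8 of 21 arrays, all of them at TCP 3 h, TCP 6 h or PH 3 h. It passed the detection filter through these groups alone, so its calls are no separate support for the rise.

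**Figure D3:**
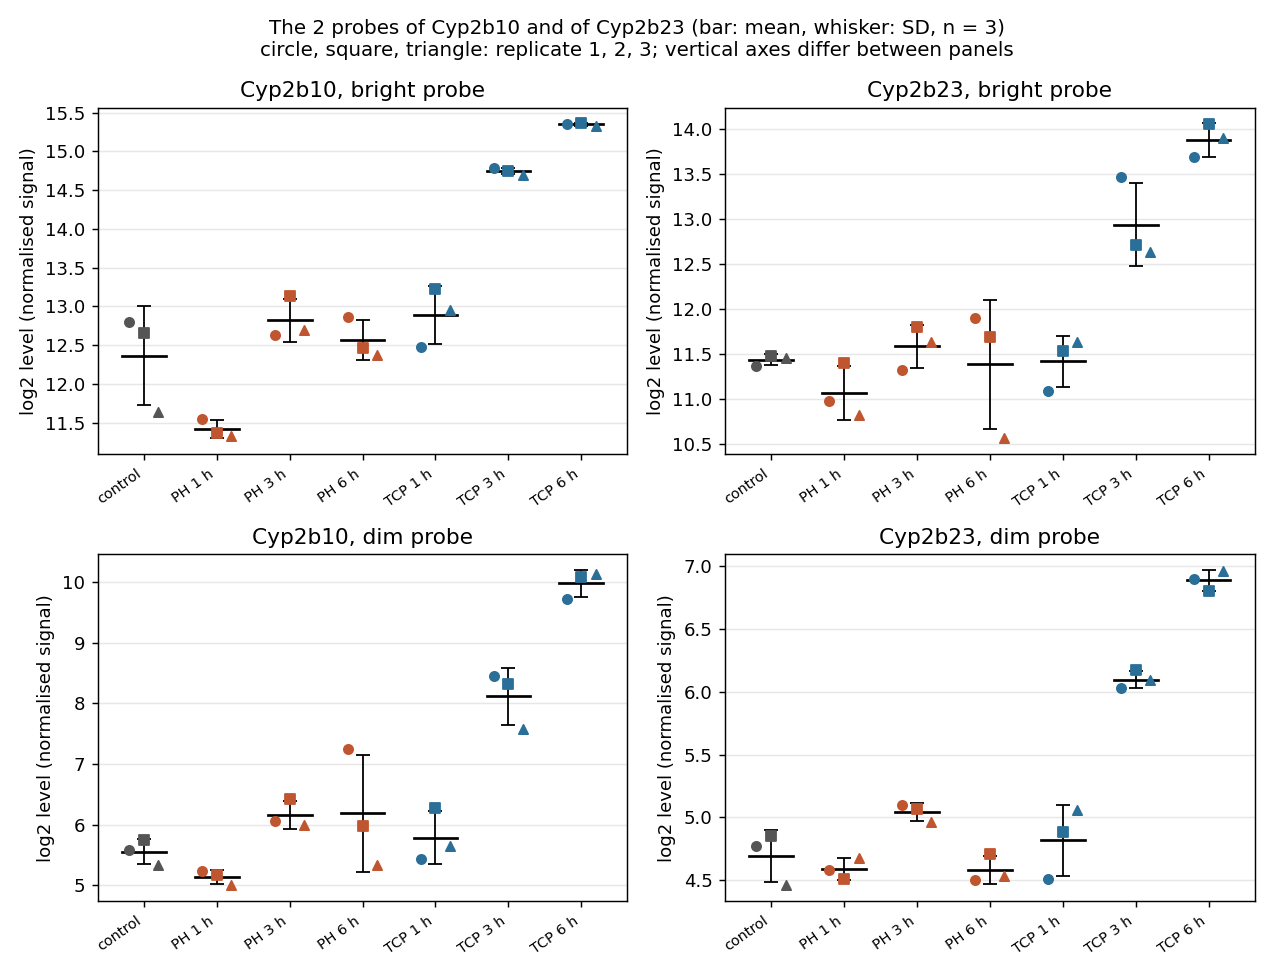
The log2 levels of the bright and the dim probe of Cyp2b10 and of Cyp2b23 are plotted by array and group, with mean bars, SD whiskers and axes that differ between panels. Both probes of each gene were highest at TCP 6 h and second highest at TCP 3 h, and the dim Cyp2b10 probe went from 5.33 to 5.74 in controls to 9.73 to 10.13 at TCP 6 h.

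Over the 21 arrays the levels of Cyp2b10 and Cyp2b23 correlated at r = 0.92, those of Cyp2b13 and Cyp2b23 at 0.78 and those of Cyp2b10 and Cyp2b13 at 0.69, whereas Cyp2b9 correlated with the others at 0.46 to 0.56. These are descriptions over arrays that share groups and normalisation. By Pearson r, the genes most like Cyp2b10 were Cyp2b23 (0.922), Cyp2c55 (0.899), Pusl1 (0.881), Synj2 (0.879) and 4930529C04Rik (0.872). Those most like Cyp2b23 were Cyp2c55 (0.930), Cyp2b10 (0.922), Pusl1 (0.920), Sar1b (0.918) and Pik3cb (0.903). Cyp2b13 was most like Cyp2d9 (0.808), Vps37b (0.801), Cyp26a1 (0.791), Cyp2b23 (0.779) and Ugt1a10 (0.772). Cyp2b9 was most like Rpl22 (0.870), Stag2 (0.857), Ugt2b36 (0.850), Fam20a (0.829) and Txnl4b (0.819).

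Of 39 other CAR target genes listed, 36 were tested. After TCP 0 were called at 1 h, 4 higher at 3 h (0.446% of all genes) and 10 higher and 0 lower at 6 h (2.72% and 2.94%). The other 26 were not called at 6 h, and the median change then was 0.61 against -0.02 for all genes. At PH 6 h 2 were called higher and 2 lower, no larger a share than that of all genes (8.79% higher and 11.9% lower). In the direct comparison at 6 h 14 of the 36 were called lower in PH than in TCP mice, against 5.43% of all genes. Cyp2c55, a P450 of the Cyp2c subfamily, rose at TCP 6 h by 4.45 (SE 0.51, limma adjusted p = 1.22e-04). Gadd45b, which encodes a stress-response protein that CAR also binds, rose by 4.63 (SE 0.85, limma adjusted p = 0.00594), and unlike the Cyp2b genes it was also called at PH 3 h (5.24) and PH 6 h (3.54). The other target called higher at PH 6 h was Fmo5, named after its value was seen (0.97, limma adjusted p = 0.00239). At TCP 6 h Fmo5 was called with a change of 1.13. Cyp2c54 (1.99), Alas1 (1.69), which encodes the first enzyme of heme synthesis, the efflux pump gene Abcc4 (1.49), the carboxylesterase gene Ces2a (1.44), the glutathione transferase gene Gstt3 (1.28) and the sulfotransferase gene Sult1d1 (1.18) were also called higher at TCP 6 h and were not called at PH 6 h.

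**Figure D4:**
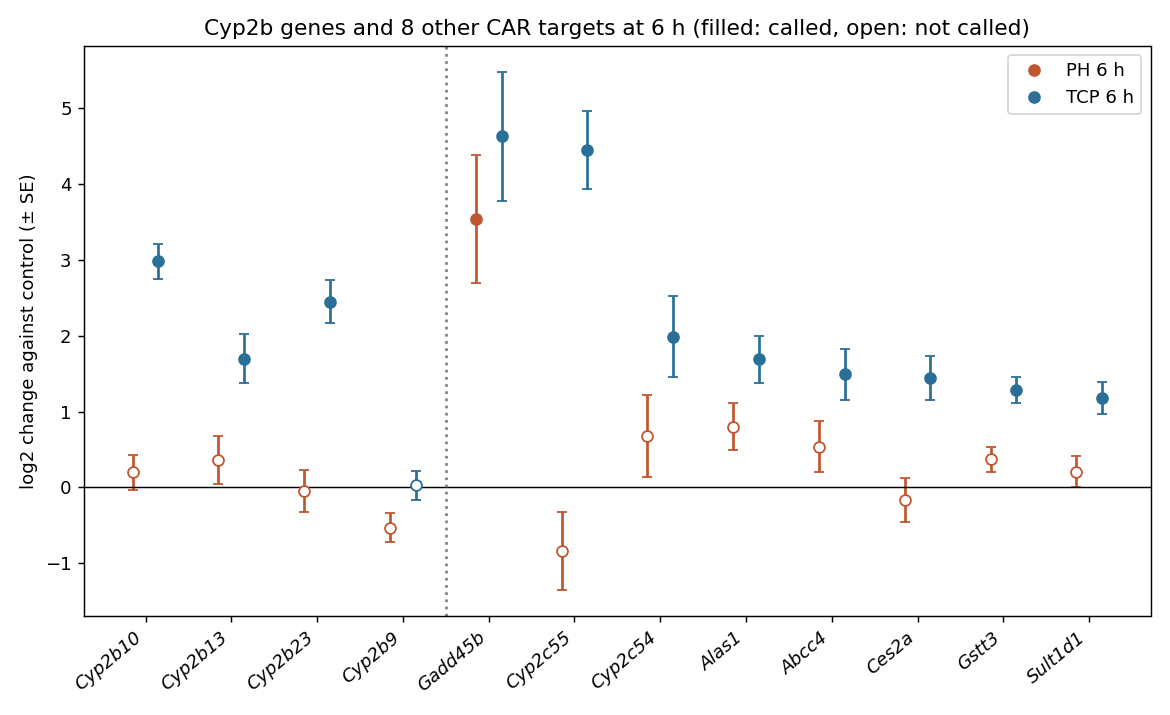
The log2 change against control at 6 h is plotted with its SE for the 4 Cyp2b genes and the 8 other CAR targets named, after PH and after TCP, filled where called. At PH 6 h Gadd45b was the one filled symbol (3.54), and at TCP 6 h Cyp2b9 was the one open symbol (0.03). Fmo5, a target that is not plotted, was also called higher at PH 6 h (0.97). The 8 other genes were chosen because they were called after TCP, by the size of their change at 6 h. Their filled symbols at TCP 6 h follow from that choice, and 26 of the 36 tested targets were not called then.

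Of 27 genes of CAR, its partners and regulators, 22 were tested. After TCP 0 were called at 1 h, 0 at 3 h and 1 at 6 h, where 2.72% of all genes were higher and 2.94% lower. The 1 was Cyb5r3, a cytochrome b5 reductase gene named after its value was seen and called lower by a change of -0.60 (limma adjusted p = 0.0365). Nr1i3, which encodes CAR itself and is named after its values were seen, had TCP changes of -0.76, -0.66 and -0.38 that were not called. It was lower at PH 3 h with -0.96 (SE 0.22, limma adjusted p = 0.00946) and at PH 6 h with -1.49 (SE 0.22, limma adjusted p = 8.47e-05). Nr1i3 was not alone in its list, where 2 genes were called lower at PH 3 h (3.52% of all genes). At PH 6 h 3 of the list were called higher and 4 lower (8.79% and 11.9% of all genes). Of the female-predominant list, 9 of 12 genes were tested and 0 were called after TCP at any time, where at most 2.72% of all genes were called higher and 2.94% lower.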

How the data were processed

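Liver RNA was hybridised to Illumina mouse beadchips (MouseRef-8 in the labels, WG-6 in the methods). The deposited table gives, per array, the authors' non-normalised signal intensity and a detection p-value, and the authors' normalised log2 values were an alternative. Signals were corrected and normalised with neqc of limma 3.58.1 in R 4.3.3 (offset 16, quantile, log2). Kept were the 17970 probes with 1 gene symbol that 3 or more arrays detected (p below 0.05), and the brightest stood for each gene. One model with 7 groups, eBayes with an intensity trend and robust estimate, was adjusted by Benjamini-Hochberg over 11442 genes. The trend and robust options were chosen after the plain fit had been seen, since they gave the counts of an earlier analysis of these data. Fits were tested on simulated data. Precision is limited by 3 arrays per group, and replicate numbers did not pair the arrays (median correlation of deviations 0.01 over 63 pairs of the same number). Every member and probe is named, with up to 8 other CAR genes called after TCP, ranked by change at 6 h, and the 5 genes most like each member. Members and lists were chosen with earlier results of these data known. Alternatives were another offset, no background correction, median scaling, the authors' values, no detection filter, all probes, beadchip or replicate block, fits within a beadchip, of 2 groups or without 1 array, and, added after seeing the data, plain eBayes.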

Additional observations from a re-analysis of the deposited data

Results flagged for a closer look

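Tested differences between treatments at the same time were called for Cyp2b10 at 1 h (-1.47), 3 h (-1.92) and 6 h (-2.78), for Cyp2b23 at 3 h (-1.36) and 6 h (-2.50) and for Cyp2b13 at 6 h (-1.34), all lower after PH than after TCP on the log2 scale. Tested steps between times were called for Cyp2b10 (1.86) and Cyp2b23 (1.52) from 1 to 3 h after TCP and for Cyp2b10 (1.40) from 1 to 3 h after PH. The dim Cyp2b10 probe was not called for PH versus TCP at 1 h (-0.64) or from 1 to 3 h after PH (1.03). Groups of 3 arrays were not tested for a single array that stands apart.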

How the results depend on the processing

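Over 564 values of the 4 genes under alternatives other than leaving out an array, 536 kept direction and call, 11 lost the call, 3 gained one and 14 changed sign; the cause was not tested. With the beadchip as a block, the number of Cyp2b genes called went from 3 to 1 at TCP 3 h, from 3 to 2 at TCP 6 h, from 1 to 0, 2 to 1 and 3 to 2 for PH versus TCP at 1, 3 and 6 h and from 2 to 1 for TCP 3 h versus 1 h, while the block called 10 genes of all at TCP 3 h in place of 118. Within beadchip 2 the TCP 3 h versus 1 h count was 0, and within beadchip 3 the PH 3 h versus 1 h count was 0, both with fewer arrays. The count went from 0 to 1 at PH 1 h with the replicate block (Cyp2b10, limma adjusted p = 0.0474), at PH 3 h in the model of 2 groups (Cyp2b13, limma adjusted p = 0.0499) and at PH 6 h under median scaling (Cyp2b9, -0.76, limma adjusted p = 0.0181). The replicate block changed no other call, and the numbers did not pair the arrays, although some arrays of the same number share a beadchip. The model of 2 groups ended the Cyp2b13 call for PH versus TCP at 6 h (-1.34, limma adjusted p = 0.0927). Plain eBayes changed no call of the 4 genes.

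No value that was called changed sign. Under median scaling the changes were -0.06 for Cyp2b23 at PH 3 h, -0.01 for Cyp2b10 at PH 6 h, -0.09, -0.17 and -0.33 for Cyp2b9 at TCP 1, 3 and 6 h and -0.03 for Cyp2b13 from TCP 3 to 6 h. With the beadchip as a block they were 0.36 for Cyp2b23 at TCP 1 h, -0.08 for Cyp2b9 at TCP 6 h and 0.05 for Cyp2b10 from PH 3 to 6 h. Within a beadchip, with the spread of a single array taken from the other groups, they were 0.03 for Cyp2b9 at PH 3 h, -0.26 for Cyp2b13 at PH 6 h, 0.17 for Cyp2b23 at TCP 1 h, -0.04 for Cyp2b9 at TCP 6 h and -0.13 for Cyp2b13 from TCP 3 to 6 h.

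Leaving out 1 array gave 1 to 3 genes called at TCP 3 h, 3 to 3 at TCP 6 h, 0 to 1 at PH 1, 3 and 6 h, 0 to 1, 2 to 2 and 2 to 4 for PH versus TCP at 1, 3 and 6 h, 1 to 2 and 0 to 1 for the TCP steps to 3 and to 6 h and 0 to 1 for the PH step to 6 h. Changes that turned sign ranged from -0.22 to 0.00 (Cyp2b9, PH 3 h), -0.16 to 0.42 (Cyp2b10, PH 6 h), -0.31 to 0.36 (Cyp2b23, PH 6 h), -0.13 to 0.14 (Cyp2b23, TCP 1 h), -0.02 to 0.16 and -0.01 to 0.11 (Cyp2b9, TCP 3 and 6 h), -0.13 to 0.06 and -0.13 to 0.05 (Cyp2b9, TCP steps to 3 and to 6 h), -0.02 to 0.23 (Cyp2b13, TCP step to 6 h) and -0.46 to 0.21 (Cyp2b23, PH step to 6 h).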

Other observations

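Between the start of Cyp2b10 and the end of Cyp2b23 the RefSeq annotation holds 19 genes, of which 10 are protein-coding and 7 are pseudogenes, among them Cyp2b26-ps, Cyp2b27-ps and Cyp2b28-ps. The 5 coding genes tested were the 4 Cyp2b genes and Cyp2a4, a female-predominant steroid hydroxylase gene, whose change at TCP 6 h was 0.22. Cyp2b19, known from skin, had 2 probes, detected on 2 and 1 of 21 arrays, and was not tested. Cyp2d9, a male-predominant P450 gene and the gene most like Cyp2b13 by correlation, rose after TCP by 2.03 at 1 h, 2.52 at 3 h and 1.96 at 6 h (SE 0.33 each, limma adjusted p = 0.0256, 0.00106 and 0.00238) and at PH 3 h by 1.72 (limma adjusted p = 0.00378). The list mean of 10 tested male-predominant genes, Cyp2d9 among them, was 8.51 to 8.84 in controls. It was 8.97 to 9.77 at TCP 1 h, above every control. At TCP 3 h (8.23 to 8.67) and TCP 6 h (8.33 to 9.21) it overlapped the controls. Of the 10, 1, 1 and 2 were called higher at TCP 1, 3 and 6 h (0.0874%, 0.446% and 2.72% of all genes), Cyp2d9 at each time. The median changes of the 10 were 0.52, -0.18 and 0.09.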
